A study of Homo sapiens with 12 samples.

Results

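The genes described are 46 genes of DNA replication and of the E2F transcription factors that switch them on and off. They were chosen by name for the role each is known to have, with earlier results of these data known. All 46 are among the 26485 genes of the annotation, and all 46 passed the filter on low counts, which left 14865 genes to be tested. OVCAR8 cells, a human line from an ovarian cancer, received for 7 h either vehicle (control), 150 nM EC359, an inhibitor of the leukemia inhibitory factor receptor, 100 nM trametinib, an inhibitor of the kinase MEK, or the combination of both agents. Polyadenylated RNA was sequenced in 3 libraries for each of the 4 groups. The paper gives as its aim to understand the mechanisms behind the stronger anti-tumor effect of the combination. The model is 1 cell line at 1 time point, and since the labels do not say that the libraries came from separate cultures, p-values measure only the spread between these libraries.

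DNA replication begins in G1 phase, when the origin recognition complex, CDC6 and CDT1 load the MCM helicase onto origins, and it proceeds in S phase, when CDC45 and the GINS complex complete the helicase and the polymerases copy both strands. The E2F proteins bind the promoters of many of these genes. E2F1, E2F2 and E2F3 are activators that the retinoblastoma protein restrains, and E2F7 and E2F8 are repressors that the activators themselves induce and that end the wave of transcription.

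The libraries held 24790392 to 32467283 counted reads, and the lowest count of any of the 46 genes in a library was 305. Values are CPM, each count taken relative to the TMM-scaled total of its own library, differences are log2 fold changes ± standard error from edgeR's quasi-likelihood test, and a gene was called at a Benjamini-Hochberg adjusted p under 0.05 over all genes tested. TMM factors lay between 1.04 and 1.06 in control and trametinib libraries and between 0.947 and 0.952 in EC359 and combination libraries. Scaling by total counts alone lowered the median of all genes to -0.15 for EC359, -0.14 for the combination and -0.16 for the combination against trametinib, and it turned the share of genes called higher and lower with EC359 from 30.8% and 30.3% to 21.0% and 44.9%. For the combination the same scaling gave 25.8% and 45.8% against control, and 23.5% and 47.6% against trametinib. The 46 genes together held 0.607% to 0.609% of all counts in control and 0.596% to 0.601% in the combination, but their summed level after TMM scaling was 5804 to 5848 CPM in control and 6286 to 6338 CPM in the combination, so the direction of their sum depends on the scaling. Of 10 markers of ovarian epithelial cancer cells, 7 exceeded 1 CPM in some library, among them PAX8 at 73.7 to 123 CPM and KRT7, KRT8 and KRT18, while CDH1, KRT19 and MUC16 stayed below that level. PTPRC and CD3E of leukocytes and DCN of fibroblasts had no count in any library, although COL1A1 reached 219 to 525 CPM and CD68 47.9 to 60.6 CPM, and none of 4 endothelial markers exceeded 1 CPM. The 5 fibroblast markers summed to 429 to 449 CPM in control, 235 to 248 with EC359, 538 to 545 with trametinib and 341 to 361 with the combination. COL1A1 made up most of this sum, with means of 427, 226, 518 and 324 CPM in these groups. PDGFRB had means of 13.3, 15.9, 21.6 and 25.8 CPM, above control with each treatment. The 5 leukocyte markers summed to 48.5 to 60.9 CPM over all libraries. The part of these markers in the results was not tested.

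The 46 genes did not move as a block with any treatment. With EC359, 23 genes were higher and 14 lower than control, against a background of 30.8% and 30.3% of all genes, and their median log2 fold change was 0.093 beside -0.012 for all genes. With trametinib, 7 were higher and 7 lower (background 13.0% and 15.2%), and the medians were 0.018 and 0.0044. With the combination, 23 were higher and 17 lower (background 35.0% and 34.7%), and the medians were 0.042 and -0.0053. Under total counts alone the balance turned, to 18 higher and 23 lower with EC359 and 17 higher and 25 lower with the combination. With trametinib the same scaling gave 9 higher and 4 lower (16.7% and 11.9% of all genes). The 3 comparisons share the control libraries, so calls of a gene in more than 1 of them are given side by side and are not independent. Few of the changes were large: E2F1 alone passed 2-fold in the combination, where 13.1% of all genes did, and none of the 46 passed it with EC359 or with trametinib, where 6.98% and 1.43% of all genes did. In bulk RNA, a change in the number of cells in S phase and a change in RNA per cell cannot be told apart.

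**Figure D1:**
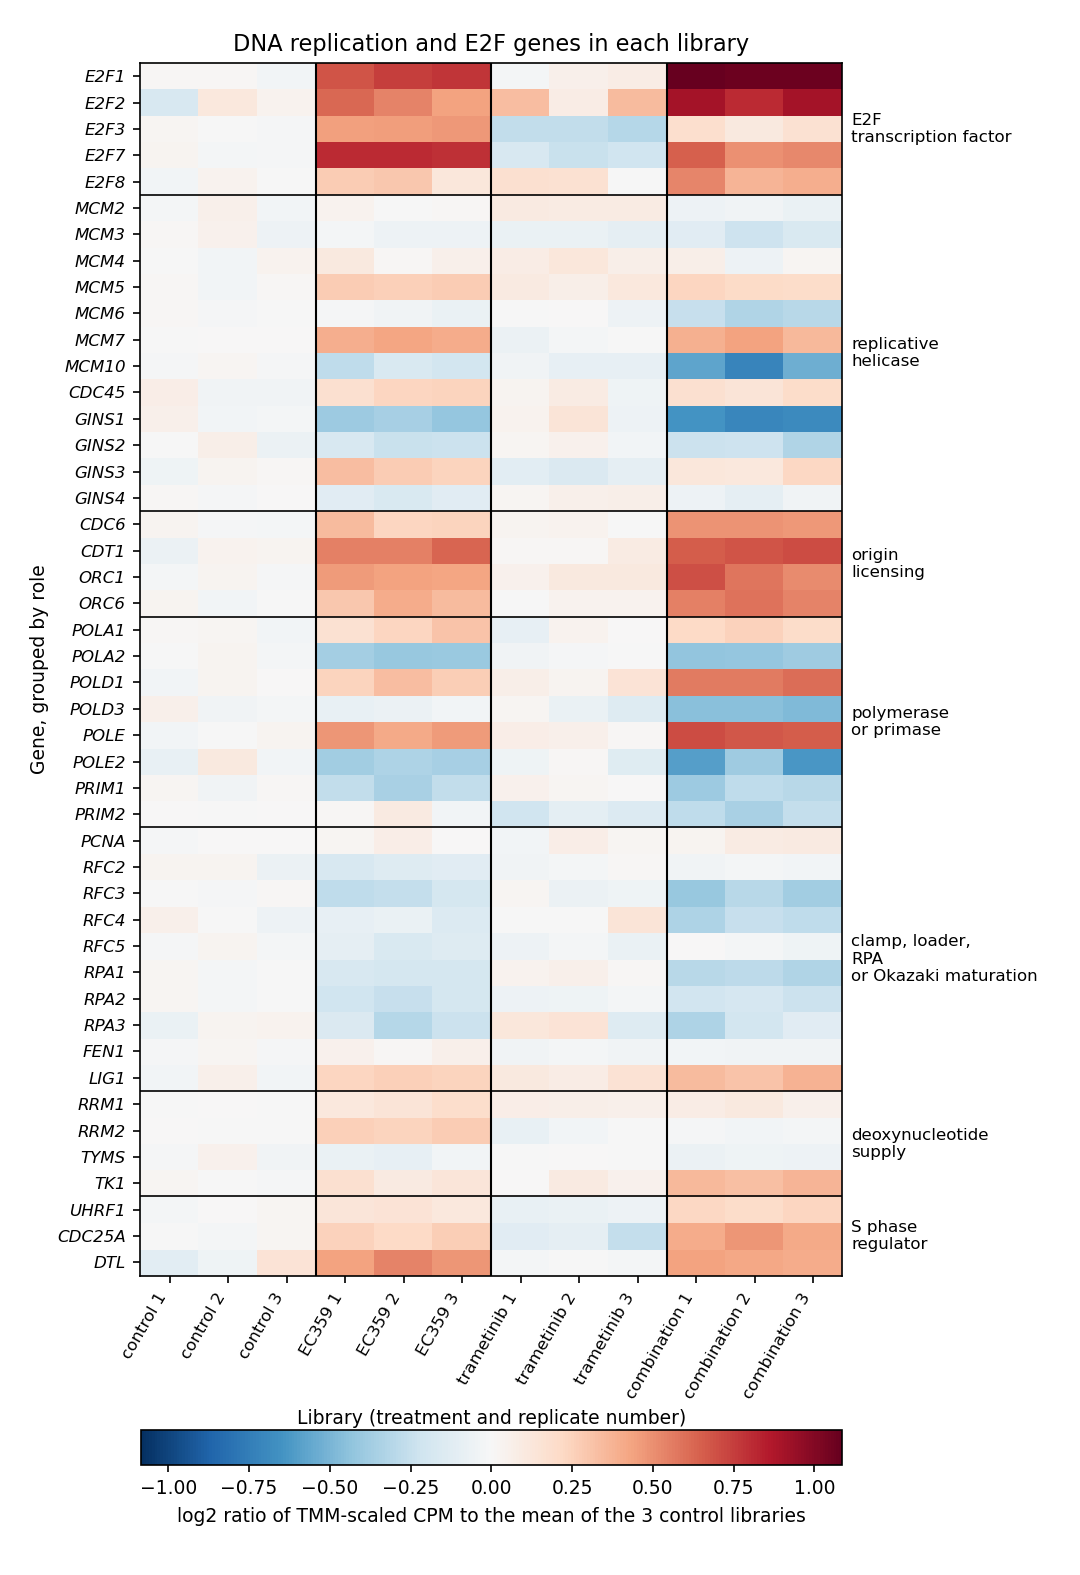
Each row is 1 of the 46 genes, grouped by role, and each column is 1 of the 12 libraries. Color is the log2 ratio of the TMM-scaled CPM to the mean of the 3 control libraries, red above and blue below. The rows of E2F1 and E2F2 are reddest in the combination, the rows of GINS1 and MCM10 are bluest there, and the trametinib columns are pale for most genes.

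The genes at the ends of the combination's range were of several roles, with polymerase genes at both ends. Near the upper end were POLE and POLD1, at log2 fold changes of 0.68 ± 0.028 and 0.58 ± 0.030. The highest were E2F1, E2F2 and CDT1, with log2 fold changes of 1.07 ± 0.036, 0.87 ± 0.074 and 0.68 ± 0.029, and the lowest were GINS1, MCM10, POLE2, POLD3, POLA2 and RFC3, from -0.68 ± 0.046 to -0.36 ± 0.037. Their promoters are shown so that the E2F letters can be compared between the ends of the range. The sequences are those of RefSeq on GRCh38.p14, from 250 bases before to 50 bases after the start site, and 39 of the 46 genes had an entry. Capitals mark the E2F letters TTTCCCGC, TTTCGCGC, TTTGCCGC or TTTGGCGC on either strand, with matches that overlap each other counted separately.
E2F1, on the minus strand at chr20:33686336-33686635:
E2F1: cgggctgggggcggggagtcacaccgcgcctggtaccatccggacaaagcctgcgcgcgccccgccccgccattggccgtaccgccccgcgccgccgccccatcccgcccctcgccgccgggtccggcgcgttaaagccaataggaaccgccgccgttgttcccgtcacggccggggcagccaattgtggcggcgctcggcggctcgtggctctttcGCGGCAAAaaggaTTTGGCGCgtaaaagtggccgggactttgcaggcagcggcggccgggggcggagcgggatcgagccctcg
E2F2, on the minus strand at chr1:23531184-23531483:
E2F2: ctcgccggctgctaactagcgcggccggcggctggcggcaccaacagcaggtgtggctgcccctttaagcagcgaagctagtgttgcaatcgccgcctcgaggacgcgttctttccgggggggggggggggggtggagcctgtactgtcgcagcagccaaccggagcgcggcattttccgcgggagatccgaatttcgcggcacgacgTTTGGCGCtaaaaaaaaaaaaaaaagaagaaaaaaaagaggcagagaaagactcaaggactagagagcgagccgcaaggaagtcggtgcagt
CDT1, on the plus strand at chr16:88803539-88803838:
CDT1: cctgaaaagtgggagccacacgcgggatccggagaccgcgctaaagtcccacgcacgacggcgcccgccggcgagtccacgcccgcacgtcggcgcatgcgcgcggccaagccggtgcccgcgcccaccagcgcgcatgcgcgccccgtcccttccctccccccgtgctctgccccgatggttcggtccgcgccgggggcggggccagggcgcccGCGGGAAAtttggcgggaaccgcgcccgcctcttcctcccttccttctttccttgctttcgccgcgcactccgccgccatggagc
GINS1, on the plus strand at chr20:25407423-25407722:
GINS1: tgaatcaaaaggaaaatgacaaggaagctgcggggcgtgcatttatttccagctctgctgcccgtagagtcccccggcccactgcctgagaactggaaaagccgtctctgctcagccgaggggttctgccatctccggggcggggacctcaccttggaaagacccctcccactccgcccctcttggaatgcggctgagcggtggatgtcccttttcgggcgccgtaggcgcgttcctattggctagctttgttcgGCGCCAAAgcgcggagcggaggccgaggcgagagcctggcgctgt
MCM10, on the plus strand at chr10:13161308-13161607:
MCM10: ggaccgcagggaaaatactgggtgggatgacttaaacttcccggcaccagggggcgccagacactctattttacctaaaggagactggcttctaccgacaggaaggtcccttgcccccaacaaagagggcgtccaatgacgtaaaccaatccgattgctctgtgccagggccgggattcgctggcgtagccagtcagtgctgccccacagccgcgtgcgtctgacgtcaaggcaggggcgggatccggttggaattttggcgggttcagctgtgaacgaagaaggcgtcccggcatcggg
POLE2, on the minus strand at chr14:49688165-49688464:
POLE2: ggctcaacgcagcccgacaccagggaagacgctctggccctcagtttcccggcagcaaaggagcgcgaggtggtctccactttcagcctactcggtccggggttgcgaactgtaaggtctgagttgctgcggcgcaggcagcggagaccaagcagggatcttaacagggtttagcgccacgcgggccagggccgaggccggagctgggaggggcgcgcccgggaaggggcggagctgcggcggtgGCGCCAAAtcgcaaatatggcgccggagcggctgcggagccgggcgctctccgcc
POLA2, on the plus strand at chr11:65261712-65262011:
POLA2: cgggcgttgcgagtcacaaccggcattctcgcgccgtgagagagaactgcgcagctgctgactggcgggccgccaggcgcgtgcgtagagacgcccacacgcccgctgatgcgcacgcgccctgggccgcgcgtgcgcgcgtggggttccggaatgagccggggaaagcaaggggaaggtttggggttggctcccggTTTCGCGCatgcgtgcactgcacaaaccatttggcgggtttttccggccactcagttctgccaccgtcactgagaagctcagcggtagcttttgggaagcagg
RFC3, on the plus strand at chr13:33817899-33818198:
RFC3: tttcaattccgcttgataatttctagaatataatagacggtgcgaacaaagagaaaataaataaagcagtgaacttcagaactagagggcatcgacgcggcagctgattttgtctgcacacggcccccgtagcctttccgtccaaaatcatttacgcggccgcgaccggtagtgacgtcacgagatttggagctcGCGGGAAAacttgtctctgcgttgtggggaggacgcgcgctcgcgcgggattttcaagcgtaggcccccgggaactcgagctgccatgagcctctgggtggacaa

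All 3 promoters of the highest genes and 4 of the 5 printed for the lowest held the E2F letters, and MCM10 held none of the forms searched. MCM10 does hold TTTGGCGG, which differs from the searched TTTGGCGC only in its last base, and such related forms were not searched. Of the next 3 highest genes, POLE held a match, and ORC1 and POLD1 held none. In E2F1 the matches began 33 and 20 bases before the start site, in E2F2 42 and in CDT1 35 bases before it. The match began 5 bases before the start in POLE2, 53 in POLA2 and 55 in RFC3, and at base 6 of the transcript in GINS1. Across the 39 genes with a promoter, 23 (59.0%) held the letters, against 1164 of all 35116 RefSeq promoters of that length (3.31%). The 35116 promoters were not matched to the 39 for GC content. The genes were chosen as replication and E2F genes, so this contrast is in part set by the choice. The share with the letters was 14 of 21 (66.7%) among genes higher in the combination, 8 of 13 (61.5%) among genes lower and 1 of 5 among genes not called. The CCAAT box, a common element of cell cycle promoters, searched as CCAAT on both strands, was in 61.5% of the 39 and 34.6% of all promoters, and the CHR element of mitotic genes, TTTGAA on both strands, was in 5.13% and 15.2%. No motif searched holds another within it. A match is a description of letters, and the RefSeq start lay within 100 bp of the start of the gene in the authors' annotation for 27 of the 39 genes.

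E2F1, E2F2, E2F3, E2F7 and E2F8 were all higher with EC359 and all higher with the combination, where 30.8% and 35.0% of all genes were. E2F1 (chr20:33675486-33686404 in hg38), the activator best known as a target of the retinoblastoma protein, was at 50.1, 50 and 48.6 CPM in the control libraries and at 48.8, 51.4 and 52.3 CPM with trametinib. It stood at 79.5, 83.3 and 85 CPM with EC359 and at 105, 103 and 104 CPM with the combination. Every combination library lay above every EC359 library, and those above all control and trametinib libraries, which overlapped. The log2 fold changes of E2F1 were 0.74 ± 0.037 with EC359 (adjusted p = 5.23e-25, edgeR's quasi-likelihood test, adjusted by Benjamini-Hochberg), 0.036 ± 0.039 under trametinib (adjusted p = 0.549) and 1.07 ± 0.036 with the combination (adjusted p = 3.16e-33), the last a 2.1-fold level. Under total counts alone and with the trend on GC content removed this last value was 0.93 and 0.95, just short of 2-fold.

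E2F2 (chr1:23506428-23531220), a related activator, had 10.9, 13.3 and 12.6 CPM in control, 15.5, 13 and 15.6 CPM with trametinib, 18.9, 17.9 and 16.6 CPM with EC359 and 23, 21.5 and 22.9 CPM with the combination. Its groups followed the order of E2F1, and only control and trametinib overlapped. The changes were 0.53 ± 0.075 with EC359, 0.26 ± 0.076 under trametinib (adjusted p = 0.00619 from edgeR) and 0.87 ± 0.074 with the combination. The trametinib call of E2F2 was lost without control replicate 1, at 0.19, and also without trametinib replicate 1 or trametinib replicate 3, at 0.22 each.

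E2F3 and E2F7 took another order. E2F3, the third activator, was at 86, 85.9 and 83.4 CPM with trametinib, 105, 103 and 102 CPM in control, 117, 112 and 116 CPM with the combination and 141, 142 and 143 CPM with EC359. E2F7, a repressor, was at 30.7, 29.4 and 29.8 CPM with trametinib, 35.4, 34.2 and 34.5 in control, 54.5, 48.8 and 49.7 with the combination and 60.9, 60.6 and 60.1 with EC359. In both genes the 4 groups did not overlap, with trametinib lowest and EC359 highest. E2F3 changed by 0.46 ± 0.030 with EC359, -0.28 ± 0.031 under trametinib and 0.15 ± 0.030 with the combination, and E2F7 by 0.80 ± 0.044, -0.21 ± 0.047 and 0.56 ± 0.045, and each of these 6 changes passed the test. The rise of E2F3 in the combination was 0.016 under total counts alone and was then no longer called.

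E2F8, the other repressor, moved least with EC359. Its libraries held 16, 16.7 and 16.2 CPM in control, 18.4, 18.2 and 16.3 CPM with trametinib, 19.7, 19.9 and 17.7 CPM with EC359 and 23.6, 21 and 21.4 CPM with the combination. The combination libraries were above all others, and those of trametinib overlapped control and EC359. The changes were 0.23 ± 0.067 with EC359, which total counts alone lowered to 0.097 and out of the calls, 0.11 ± 0.066 with trametinib (adjusted p = 0.229 from edgeR) and 0.43 ± 0.066 with the combination.

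**Figure D2:**
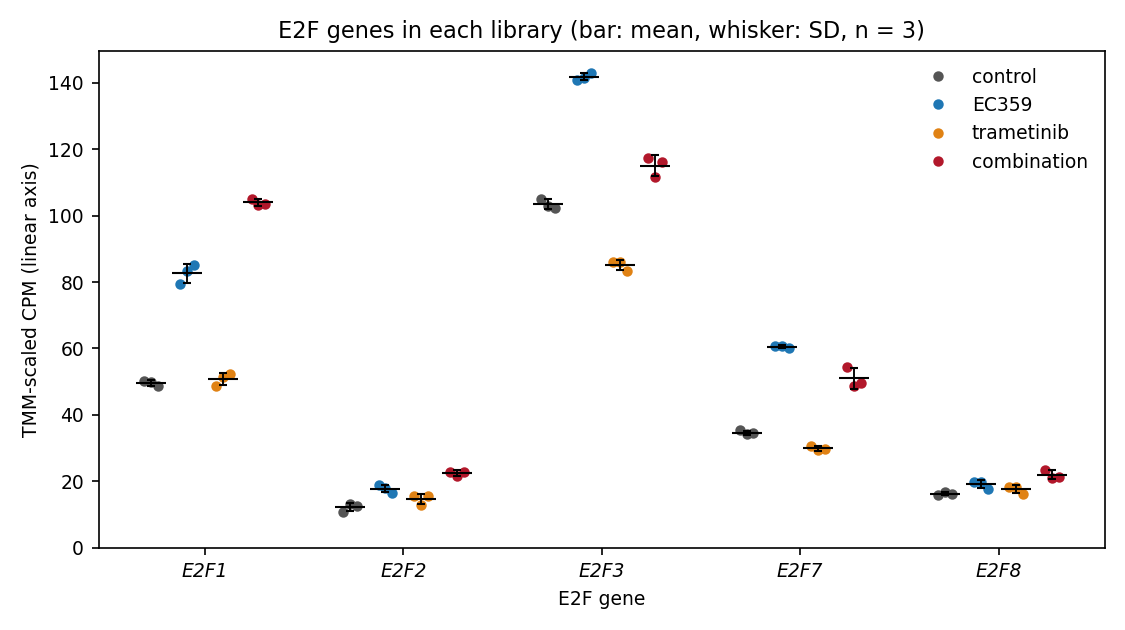
TMM-scaled CPM of the 5 E2F genes on a linear axis, 1 point per library, colored by treatment, with the mean as a bar and the SD over 3 libraries as a whisker. E2F1 rises from 48.6 to 50.1 CPM in control to above 103 CPM in the combination, and E2F3 and E2F7 are highest with EC359 alone and lowest with trametinib.

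Of the origin licensing genes, CDT1, CDC6, ORC1 and ORC6 were each higher with EC359 and with the combination, where 30.8% and 35.0% of all genes were. None was called with trametinib, except that total counts alone gave ORC1 a call there, at 0.11. CDT1 (chr16:88803778-88809258), which escorts the MCM helicase to origins, had 136, 146 and 145 CPM in control, 143, 143 and 151 CPM with trametinib, 207, 207 and 219.7 CPM with EC359 and 224, 227 and 233 CPM with the combination. ORC1 (chr1:52372829-52404471), the largest subunit of the origin recognition complex, had 48.1, 49.8 and 48.3 CPM in control, 50.4, 52.6 and 52.4 with trametinib, 67.3, 66.1 and 65.5 with EC359 and 79.4, 72.7 and 69.7 with the combination. In both genes the combination libraries were highest and EC359 libraries next, with no overlap between these groups or with the rest. CDT1 changed by 0.57 ± 0.029 with EC359 and by 0.68 ± 0.029 with the combination (adjusted p = 1.28e-27 from edgeR), and ORC1 by 0.44 ± 0.041 and 0.60 ± 0.040. CDC6, an ATPase that joins the origin complex, changed by 0.27 ± 0.030 and 0.48 ± 0.030. ORC6, the smallest subunit of that complex, changed by 0.35 ± 0.035 and 0.56 ± 0.035. With trametinib the 4 genes lay between 0.023 and 0.087. All 8 calls with EC359 and the combination held in each alternative that was run.

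The helicase genes had calls in both directions. Of 12, 4 were higher and 4 lower with EC359 (30.8% and 30.3% of all genes), and 4 were higher and 6 lower with the combination (35.0% and 34.7%). GINS1 (chr20:25407687-25448555), a subunit of the GINS complex that holds the active helicase together, was at 57.6, 54.2 and 54.5 CPM in control, 56.8, 61 and 53.3 CPM with trametinib, 42, 43.2 and 41.4 CPM with EC359 and 35.3, 33.8 and 34.4 CPM with the combination. MCM10 (chr10:13161554-13211104), which helps to activate the helicase, was at 58.4, 59.9 and 58.5 CPM in control, 57.5, 55.5 and 55.5 with trametinib, 48.7, 52.5 and 51.2 with EC359 and 39.5, 35.8 and 40.9 with the combination. In both genes the combination libraries were lowest, EC359 libraries next and control libraries above these, without overlap. The changes of GINS1 were -0.39 ± 0.044 with EC359, 0.041 ± 0.042 under trametinib and -0.68 ± 0.046 with the combination (adjusted p = 8.45e-20 from edgeR), and those of MCM10 were -0.21 ± 0.042, -0.068 ± 0.041 and -0.61 ± 0.044.

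The 4 subunits of GINS, which work as 1 complex, did not change alike. GINS2 was lower, at -0.22 ± 0.044 with EC359 and -0.26 ± 0.045 with the combination, GINS3 was higher, by 0.28 ± 0.039 and 0.15 ± 0.039, and GINS4 was lower, at -0.14 ± 0.030 with EC359. With the combination, GINS4 was at -0.065 ± 0.030 (adjusted p = 0.0485 from edgeR), a call lost in 11 of 16 alternatives, and GINS3 was at 0.015 and not called under total counts alone. The 6 subunits of the MCM ring also differed. MCM5 and MCM7 were higher with EC359, by 0.27 ± 0.027 and 0.41 ± 0.024, and with the combination, by 0.21 ± 0.027 and 0.39 ± 0.024. MCM3 and MCM6 were lower with the combination, at -0.17 ± 0.028 and -0.29 ± 0.030, beside -0.042 ± 0.028 and -0.041 ± 0.029 with EC359, which did not pass the test. Under total counts alone both passed it with EC359, at -0.18 each, and MCM3 passed it in 3 of 16 alternatives in all. MCM4 was not called with either, at 0.056 and 0.010, and under total counts alone both values were negative, at -0.078 and -0.13, and called. In 5 other alternatives the EC359 value of MCM4 was called higher, at 0.059 to 0.084. MCM2 had 233, 245 and 231 CPM in control, 243, 236 and 239 CPM with EC359, 254, 251 and 252 CPM with trametinib and 227, 230.3 and 225 CPM with the combination. Trametinib libraries were highest and combination libraries lowest in MCM2, and control and EC359 overlapped between them, with changes of 0.094 ± 0.025 with trametinib (adjusted p = 0.00279 from edgeR) and -0.055 ± 0.026 with the combination (adjusted p = 0.054). The combination value of MCM2 passed the test in 5 of 16 alternatives, among them the removal of the GC trend, at -0.11, and total counts alone, at -0.19. CDC45, which joins MCM and GINS into the active helicase, was at 0.22 ± 0.041 with EC359 and 0.17 ± 0.041 with the combination, and at 0.084 and 0.033, not called, under total counts alone.

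Of the 8 polymerase and primase genes, 3 were higher and 3 lower with EC359 (30.8% and 30.3% of all genes). With the combination, 3 were higher and 5 lower (35.0% and 34.7%). In each of the polymerases alpha, delta and epsilon, the catalytic subunit was higher in the combination and the accessory subunit among these genes lower. PRIM1, the catalytic subunit of the primase, was lower, at -0.32. POLE (chr12:132623762-132687524), the catalytic subunit of the leading-strand polymerase, had 134, 137 and 139.9 CPM in control, 144, 142 and 138 CPM with trametinib, 191, 182 and 189 CPM with EC359 and 224, 218 and 216 CPM with the combination. POLE2 (chr14:49643552-49688380), its accessory subunit, had 18.3, 20.7 and 18.9 CPM in control, 18.6, 19.5 and 17.7 with trametinib, 14.9, 15.3 and 15.1 with EC359 and 12.8, 14.8 and 12.5 with the combination. For POLE the combination libraries were the highest and EC359 libraries next, and for POLE2 they were the lowest and next lowest, without overlap in either gene. POLE changed by 0.45 ± 0.028 with EC359 and 0.68 ± 0.028 with the combination (adjusted p = 3.01e-29 from edgeR), and POLE2 by -0.36 ± 0.070 and -0.53 ± 0.071 (adjusted p = 2.22e-09). Between EC359 and the combination POLE2 differed by -0.17 ± 0.074, a call that was lost in 9 of 16 alternatives.

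POLD1 (chr19:50384323-50418018), the catalytic subunit of the lagging-strand polymerase, had 125, 129.5 and 127 CPM in control, 133, 129.7 and 141 CPM with trametinib, 151, 160.0 and 153 CPM with EC359 and 188, 188 and 194 CPM with the combination. Its groups rose in this order without overlap. POLD3 (chr11:74592530-74643060), an accessory subunit of the same enzyme, had 59.4, 55.7 and 56.3 CPM in control, 57.9, 54.5 and 51.8 with trametinib, 54.2, 54.7 and 55.9 with EC359 and 41.7, 41.8 and 40.9 with the combination. For POLD3 the combination alone stood apart, below 3 groups that overlapped. The changes were 0.28 ± 0.030, 0.082 ± 0.030 and 0.58 ± 0.030 for POLD1 with EC359, trametinib and the combination, and -0.056 ± 0.041, -0.061 ± 0.041 and -0.46 ± 0.043 for POLD3, of which only the last passed the test. Total counts alone gave POLD3 a call with EC359 too, at -0.19. The trametinib call of POLD1 was lost in 5 of 16 alternatives, among them the fits without control replicate 1 (0.068), control replicate 3 (0.081) and trametinib replicate 3 (0.047).

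POLA2 (chr11:65261852-65298685), the accessory subunit of the polymerase that begins each new strand, was at 33.6, 34.5 and 33.3 CPM in control, 32.9, 33.4 and 33.7 CPM with trametinib, 26.1, 25.5 and 25.5 CPM with EC359 and 25.1, 25.3 and 25.9 CPM with the combination. The libraries formed a pair of separate levels, with EC359 and the combination overlapping at the lower and control and trametinib at the upper. POLA2 changed by -0.39 ± 0.051 with EC359 and -0.41 ± 0.051 with the combination. POLA1, the catalytic subunit, changed by 0.24 ± 0.043 and 0.22 ± 0.043, the last at 0.083 and not called under total counts alone. The primase subunits make the RNA primer for this polymerase. PRIM1, the catalytic one, was lower, at -0.30 ± 0.045 with EC359 and -0.32 ± 0.045 with the combination. PRIM2, the large one, had 47.8, 47.3 and 47.6 CPM in control, 48, 50.8 and 46.7 CPM with EC359, 41, 44.3 and 42.9 CPM with trametinib and 39.3, 37.2 and 39.6 CPM with the combination. Combination libraries were lowest and trametinib libraries next for PRIM2, apart from control and EC359, which overlapped, with changes of -0.16 ± 0.043 with trametinib and -0.30 ± 0.045 with the combination.

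Most genes for the clamp loader, and all 3 for the single-strand binding protein RPA, were lower with EC359. Of the 10 genes for the clamp, its loader, RPA and the joining of Okazaki fragments, 1 was higher and 6 lower with EC359 (30.8% and 30.3% of all genes), and 2 were higher and 5 lower with the combination (35.0% and 34.7%). RFC3 (chr13:33818069-33966558), a subunit of the loader that opens the clamp, had 78.8, 78.2 and 79.6 CPM in control, 80.0, 75.5 and 76.4 CPM with trametinib, 65, 66 and 69 CPM with EC359 and 59.4, 63.9 and 60.7 CPM with the combination. The combination libraries were lowest and EC359 libraries next, each apart from the rest. RFC3 changed by -0.24 ± 0.036 and -0.36 ± 0.037 with EC359 and the combination. RFC4, of the same complex, was at -0.10 ± 0.045 with EC359 (adjusted p = 0.0517 from edgeR), not called, and at -0.28 ± 0.046 with the combination. The EC359 value of RFC4 stayed uncalled in 12 of 16 alternatives and ran from -0.23 to -0.068 over all 16. RFC2 and RFC5 were lower with EC359, at -0.15 ± 0.028 and -0.14 ± 0.036, but stood at -0.027 ± 0.028 and -0.021 ± 0.036 with the combination, which did not pass the test except under total counts alone, at -0.17 and -0.16. RPA1, RPA2 and RPA3, the subunits of the protein that coats single strands, were lower, at -0.19 ± 0.024, -0.22 ± 0.030 and -0.24 ± 0.063 with EC359 and at -0.31 ± 0.024, -0.21 ± 0.030 and -0.22 ± 0.063 with the combination.

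LIG1, the ligase that seals Okazaki fragments, went the other way. Its libraries held 83.3, 88.3 and 83.4 CPM in control, 91.6, 89.9 and 94.6 CPM with trametinib, 100.1, 102 and 101 CPM with EC359 and 108, 105 and 111 CPM with the combination. The groups rose in this order without overlap, by 0.12 ± 0.033, 0.25 ± 0.033 and 0.34 ± 0.032 from control. PCNA, the sliding clamp, was at 0.035 ± 0.026 with EC359, not called, and at 0.073 ± 0.026 with the combination (adjusted p = 0.0106 from edgeR), where total counts alone turned it to -0.066 and leaving out combination replicate 3 gave 0.062, not called. FEN1, the nuclease that trims the fragments, was not called against control, at 0.040, -0.035 and -0.036 with EC359, trametinib and the combination, but total counts alone gave it a call with EC359 at -0.094 and with the combination at -0.17.

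Of the 4 genes for deoxynucleotides, 1 was higher in the combination than with EC359 and 2 were lower (24.1% and 25.2% of all genes). TK1 was the higher one, and RRM2 and RRM1 were lower. The RRM1 call, at -0.068 ± 0.026, did not hold in every alternative. TK1, the thymidine kinase of S phase, was at 336 ± 3.64 CPM in control, 369.5 ± 9.93 CPM with EC359 and 427 ± 5.86 CPM with the combination (mean ± SD, n = 3 each), with changes of 0.14 ± 0.025 and 0.35 ± 0.025. The EC359 call of TK1 was lost under total counts alone, at 0.0019, and with the GC trend removed, at 0.040. RRM2, the limiting subunit of ribonucleotide reductase, was at 276 ± 1.0, 329.8 ± 3.56 and 272 ± 2.18 CPM, higher by 0.26 ± 0.024 with EC359 and at -0.021 ± 0.024 with the combination, which did not pass the test except under total counts alone, at -0.16. RRM1, its large partner, was at 0.15 ± 0.025 and 0.080 ± 0.025, and at 0.014 and -0.059 under total counts alone. TYMS, which makes thymidylate, was at -0.065 ± 0.024 and -0.054 ± 0.024. Its EC359 call held in 13 of 16 alternatives, and its combination call was lost in 10 of 16.

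The regulators CDC25A, DTL and UHRF1 were each higher with EC359 and with the combination, where 30.8% and 35.0% of all genes were. CDC25A, the phosphatase that activates the S phase cyclin-dependent kinase, had 43.2, 42.7 and 44 CPM in control, 39.7, 40.3 and 36.3 CPM with trametinib, 51.4, 50.3 and 52.1 CPM with EC359 and 57.4, 60.2 and 57.6 CPM with the combination. Trametinib libraries were lowest, then control, EC359 and the combination, and no groups overlapped. The changes were -0.16 ± 0.044 with trametinib (adjusted p = 0.00339 from edgeR), 0.24 ± 0.043 with EC359 and 0.43 ± 0.042 with the combination. The trametinib call of CDC25A was lost without trametinib replicate 3, at -0.11. DTL, the adaptor of a ubiquitin ligase that removes CDT1 in S phase, was higher by 0.48 ± 0.054 and 0.41 ± 0.054. UHRF1, which carries DNA methylation to new strands, was higher by 0.13 ± 0.025 and 0.22 ± 0.024, and its EC359 value was -0.0040 under total counts alone.

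**Figure D3:**
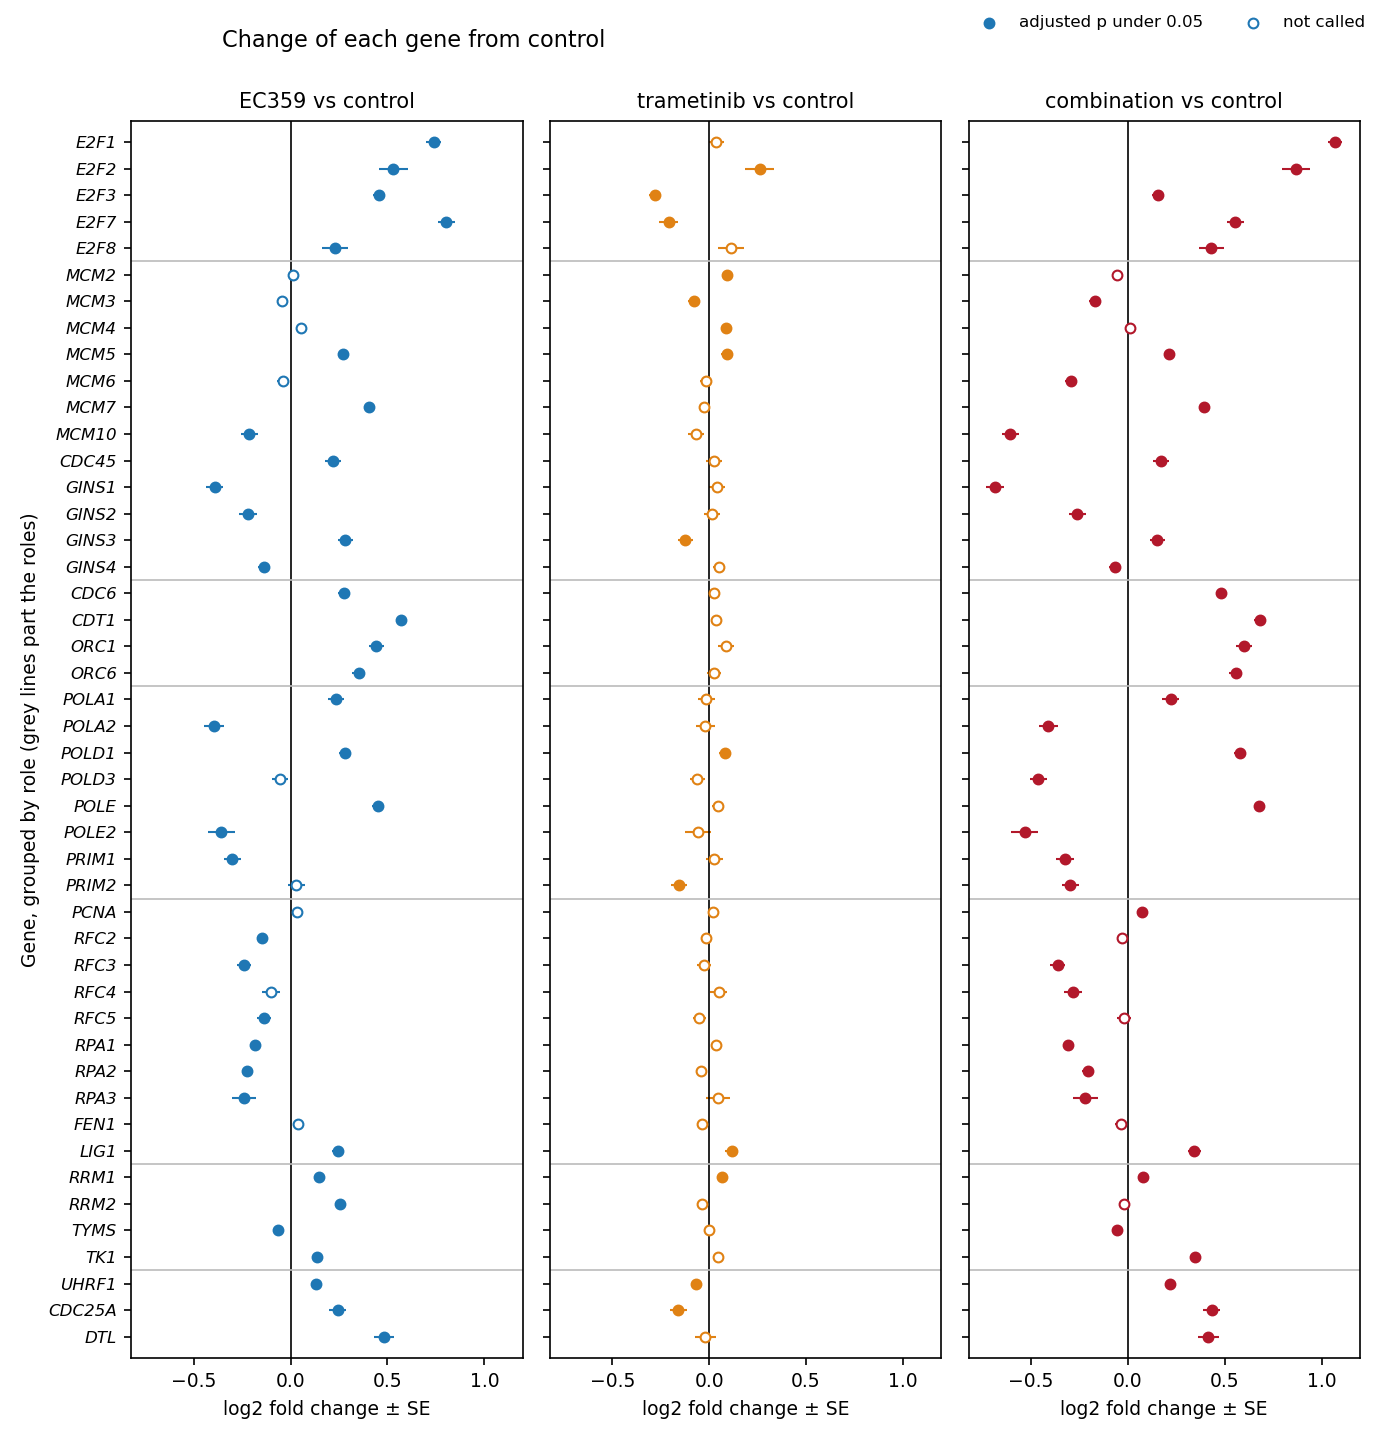
Log2 fold change from control of each of the 46 genes under EC359, trametinib and their combination, with the standard error as a bar. Filled points had an adjusted p under 0.05 in edgeR's quasi-likelihood test, and grey lines part the roles. E2F genes, licensing genes and S phase regulators lie right of 0 with EC359 and the combination, the other roles spread to both sides, and trametinib values lie between -0.28 and 0.26.

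With trametinib alone 14 of the 46 genes were called, none of them by 2-fold, and the 7 in each direction are near the 13.0% and 15.2% of all genes. The 7 lower ones were E2F3, E2F7, CDC25A, PRIM2, GINS3, MCM3 and UHRF1, from -0.28 ± 0.031 to -0.068 ± 0.025, and the 7 higher ones were E2F2, LIG1, MCM2, MCM5, MCM4, POLD1 and RRM1, from 0.26 ± 0.076 to 0.067 ± 0.025. Only 4 of the 14 calls, those of E2F3, E2F7, MCM2 and LIG1, held in every alternative. Leaving out control replicate 1, control replicate 2 or trametinib replicate 3 left 4 genes higher, and leaving out control replicate 2 left 4 lower.

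The combination was then compared with each agent. Against EC359, 16 of the 46 genes were higher and 17 lower (background 24.1% and 25.2%), and none passed 2-fold (3.24% of all genes did). The highest were E2F2, E2F1 and POLD1, by 0.34 ± 0.072, 0.33 ± 0.035 and 0.29 ± 0.030, and the lowest POLD3, MCM10 and PRIM2, at -0.41 ± 0.044, -0.39 ± 0.045 and -0.33 ± 0.045. The 4 licensing genes were all higher than with EC359, by 0.11 to 0.21, although that of CDT1 did not pass with the GC trend removed, at 0.060. Of the 12 helicase genes 6 were lower and only GINS4, at 0.071 ± 0.031, higher, a call that was lost in 11 of 16 alternatives. Against trametinib, 21 were higher and 18 lower (background 35.3% and 32.9%), or 17 higher and 25 lower under total counts alone. E2F1 alone passed 2-fold (11.6% of all genes did), but its lowest value over the alternatives was 0.87, short of 2-fold. The highest were E2F1, E2F7 and CDT1, by 1.03 ± 0.036, 0.76 ± 0.046 and 0.64 ± 0.029, and the lowest GINS1, MCM10 and POLE2, at -0.72 ± 0.046, -0.54 ± 0.044 and -0.47 ± 0.071. All 12 helicase genes were called against trametinib alone, 4 higher and 8 lower, but 4 of these calls did not hold in every alternative. Under total counts alone MCM5 was at -0.041 and CDC45 at -0.017, neither called. Without combination replicate 2, MCM3 was at -0.059 and MCM4 at -0.041, neither called, and MCM4 was also lost without trametinib replicate 2, at -0.061.

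Trametinib was then followed without and with EC359. The comparisons of trametinib with control and of the combination with EC359 share no library. E2F3, E2F7, MCM3, GINS3 and PRIM2 were lower in both, and E2F2, POLD1 and LIG1 higher in both. UHRF1 and CDC25A were lower with trametinib alone, at -0.068 ± 0.025 and -0.16 ± 0.044, and higher when trametinib was added to EC359, by 0.089 ± 0.025 and 0.19 ± 0.042. MCM2 and RRM1 were higher with trametinib alone, by 0.094 ± 0.025 and 0.067 ± 0.025, and lower on EC359, at -0.070 ± 0.026 and -0.068 ± 0.026. The share of all genes with each such pair of calls was not counted, so these genes are not set against a background. Other genes were called only when trametinib was added to EC359, which is no test of the difference.

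That difference was tested by the interaction, the combination's log2 fold change less the sum of those of the single agents. It was above 0 in 10 of the 46 genes and below 0 in 12 (background 14.4% and 15.9%), with a median of -0.019 beside -0.0081 for all genes. CDC25A, E2F1 and POLD1 exceeded the sum most. For CDC25A the single agents gave 0.24 and -0.16, their sum was 0.084, the combination gave 0.43, and the interaction was 0.35 ± 0.061 (adjusted p = 7.37e-06 from edgeR). For E2F1 a sum of 0.77 stood against 1.07, an interaction of 0.30 ± 0.052 (adjusted p = 8.38e-06). CDC6, ORC6, POLE, TK1, UHRF1, RFC2 and RFC5 also exceeded the sum, by 0.13 to 0.19, and POLD1 by 0.21. POLD3, GINS1 and MCM10 lay furthest below the sum. For POLD3 the sum was -0.12 and the combination -0.46, an interaction of -0.34 ± 0.060 (adjusted p = 6.37e-06 from edgeR). For GINS1 the interaction was -0.33 ± 0.064 (adjusted p = 3.74e-05) and for MCM10 -0.33 ± 0.061 (adjusted p = 2.53e-05). By role, 6 of the 12 helicase genes (MCM2, MCM4, MCM5, MCM6, MCM10 and GINS1) were below the sum and none above, and 2 of the 4 licensing genes were above and none below. Of the 22 calls, 21 held in every alternative, and PRIM2, at -0.17 ± 0.063, did not.

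**Figure D4:**
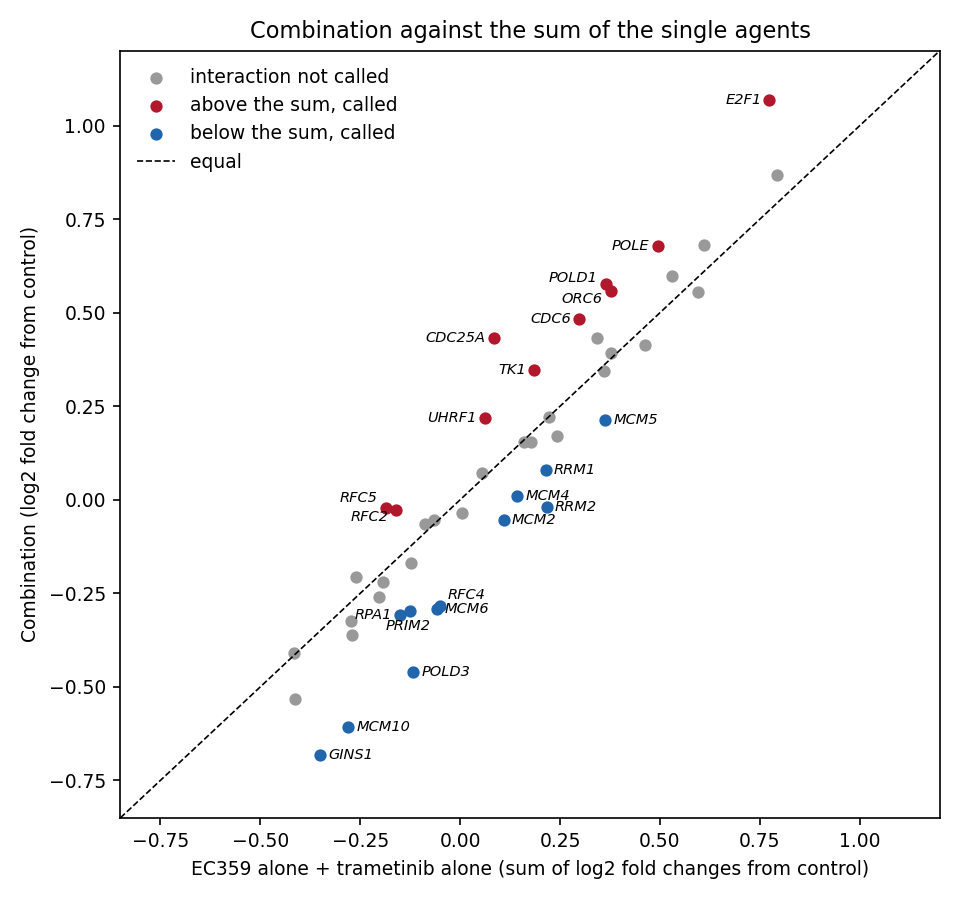
Each point is 1 of the 46 genes, with the sum of the log2 fold changes of EC359 alone and trametinib alone on the horizontal axis and that of the combination on the vertical axis. The dashed line is equality. The 10 red points lie above the sum and the 12 blue points below it by the interaction test, with E2F1 at the upper end and GINS1 at the lower, and both axes share the control libraries.

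The GC content of the transcripts was set beside the changes. In the combination the 23 higher genes had a median GC content of 51.4%, the 17 lower genes 45.4% and the 6 genes not called 51.1%. Across the 46 genes, which are not independent replicates and come from the same libraries, log2 fold change and GC content correlated with Pearson's r = 0.57 for the combination, 0.38 for EC359 and 0.39 for trametinib. Across 14485 of all genes tested r was 0.07, 0.07 and -0.00. For the combination against EC359 it was 0.61 across the 46 genes and 0.03 across all genes. The polymerase pairs did not all follow this order. POLD1 and POLE, which rose, have 65.0% and 55.6% GC beside 43.0% and 43.7% for POLD3 and POLE2, which fell, but POLA1 has 42.9% and POLA2 54.5%. When each library's trend on GC content over all genes was removed, an alternative added after the data were seen, no value of the 46 genes that was called before or after changed its sign, 9 calls were lost and 5 gained. Higher and lower genes had median gene lengths of 31.1 and 36.8 kb and medians of 15 and 12 exon blocks.

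**Figure D5:**
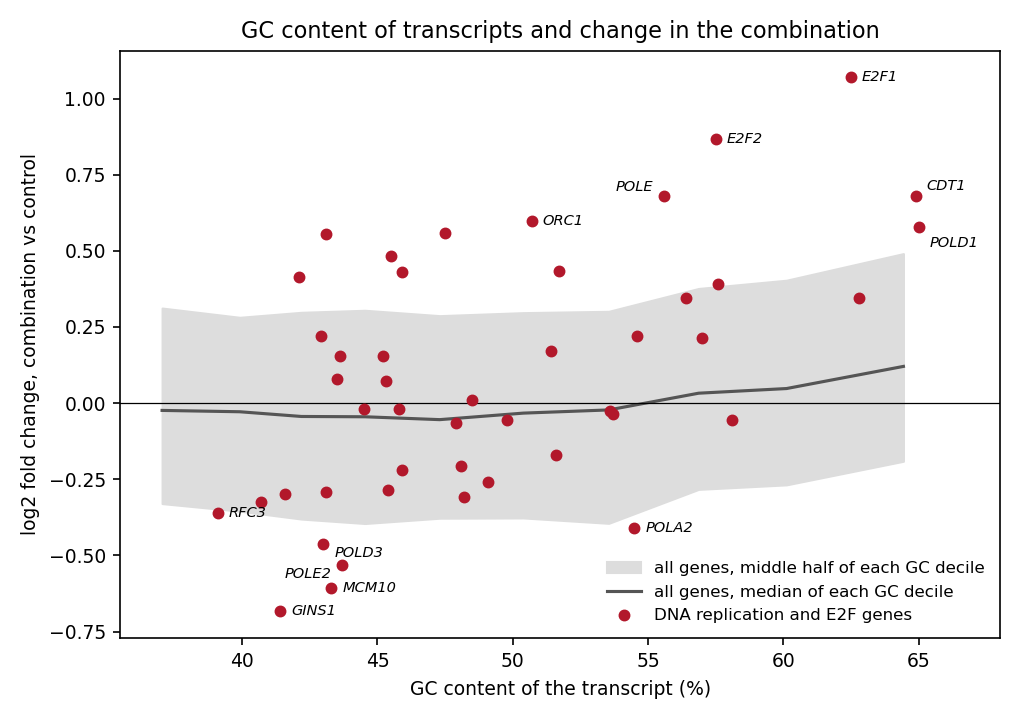
Log2 fold change in the combination against control plotted over the GC content of the transcript, in percent, for the 46 genes (red points). The grey line is the median of all genes in each decile of GC content and the band runs between their quartiles. The 46 genes lie on both sides of the line, inside and outside the band, with E2F1 at 62.5% and GINS1 at 41.4% GC.

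Per kilobase of exon, the control levels of these genes differed widely from gene to gene. The highest were TYMS at 226 ± 6.77 CPM per kb, TK1 at 211 ± 2.28 and PCNA at 197 ± 1.2 (mean ± SD, n = 3), and the lowest were E2F2 at 2.36 ± 0.24, E2F8 at 4.1 ± 0.0958, DTL at 5.81 ± 0.568 and E2F7 at 6.04 ± 0.107. The subunits of 1 complex were not at 1 level either. In the MCM ring they ran from 35.3 ± 0.299 for MCM6 to 92.2 ± 2.28 for MCM4, and in RPA from 20.4 ± 0.844 for RPA3 to 79.6 ± 1.28 for RPA1.

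Of 12 further E2F, DP, pocket protein and LIN genes, the partners and relatives of the 5 E2F genes, 6 were higher and 5 lower in the combination (35.0% and 34.7% of all genes), with a median log2 fold change of 0.13. RB1, the pocket protein that restrains the activator E2Fs, was at 6.57, 6.69 and 6.86 CPM in control, 6.09, 7.37 and 6.42 CPM with trametinib, 15.2, 15.4 and 15.1 CPM with EC359 and 26.2, 26.6 and 25.1 CPM with the combination. The combination libraries were highest and EC359 libraries next, and control and trametinib overlapped below them, with changes of 1.18 ± 0.080 with EC359 and 1.95 ± 0.077 with the combination and an interaction of 0.79 ± 0.11 (adjusted p = 9.78e-08 from edgeR). LIN54 and E2F6, a DNA-binding subunit of the DREAM complex and a repressor E2F, were higher in the combination by 0.98 ± 0.048 and 0.88 ± 0.047. E2F5, E2F4 and LIN9 were lower, at -1.10 ± 0.082, -0.49 ± 0.035 and -0.45 ± 0.064. E2F4 and E2F5 are the E2Fs that act mostly as repressors with the pocket proteins, and LIN9 is a further subunit of DREAM.

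Other replication genes were counted from a separate list of 54. With EC359, 16 were higher and 25 lower (30.8% and 30.3% of all genes), with trametinib 6 higher and 9 lower (13.0% and 15.2%), and with the combination 17 higher and 23 lower (35.0% and 34.7%), with a median of -0.0051 in the last. TICRR, which helps to load CDC45 at origins, was the highest, with 27.1, 29 and 29.1 CPM in control, 27.9, 32.8 and 31.4 CPM with trametinib, 44.8, 44.5 and 44.9 CPM with EC359 and 63.4, 63.8 and 64.3 CPM with the combination, a change of 1.17 ± 0.047. CHTF18 and ATAD5, of clamp loaders related to RFC, were higher by 0.94 ± 0.036 and 0.66 ± 0.063. The lowest were ORC5, of the origin recognition complex, ASF1A, a histone chaperone, and DBF4, the activator of the kinase that fires origins, at -0.96 ± 0.11, -0.95 ± 0.053 and -0.74 ± 0.031. ORC5 fell where ORC1 and ORC6 rose, with 9.75, 9.57 and 9.83 CPM in control, 9.18, 7.45 and 9.47 CPM with trametinib, 7.56, 7.05 and 8.28 CPM with EC359 and 5.19, 4.81 and 4.96 CPM in the combination.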

How the data were processed

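OVCAR8 libraries were grouped by the treatment in their labels. The deposited values are the authors' estimated counts per gene from featureCounts 1.5.0-p1 on hg38 (paired, reverse-stranded, shared reads split as fractions), and 47.5% of the values of the 46 genes were not whole. They were rounded to whole counts. HISAT2 is named in the submitters' processing notes, and its version is not given in the sources used here. Counts assigned to genes summed to 24790392 to 32467283 per library, and no molecular identifiers were used.

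Genes were filtered with filterByExpr (minimum count 10, total 15), scaled with TMM and tested with edgeR 4.0.16 (robust quasi-likelihood, 1 fit of all 4 groups, R 4.3.3), with Benjamini-Hochberg adjustment over 14865 genes and a threshold of 0.05. The script was tested on simulated data. DESeq2 1.42.0, other scalings, filters and fits, a replicate block and leaving out each library were alternatives, and removal of a GC trend was added after the data were seen. The 46 genes and all lists were chosen with earlier results of these data known. Values per library are given for the 5 E2F genes, the 6 lowest and 6 highest called in the combination and the 3 lowest and highest called in every other comparison. On the other lists the 3 lowest and 3 highest in the combination are named, and per-library values are given for some of them, chosen after their values were seen. GC content is that of the longest GENCODE transcript of each gene, and promoters are those of RefSeq.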

Additional observations from a re-analysis of the deposited data

Results flagged for a closer look

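In 22 of the 46 genes the effect of 1 agent differed with and without the other, by the interaction term in edgeR's quasi-likelihood test at an adjusted p under 0.05, and they are given here as log2 values with no explanation. Below the sum of the single agents were POLD3 at -0.34, GINS1 at -0.33, MCM10 at -0.33, RRM2 at -0.24, MCM6 at -0.23, RFC4 at -0.23, PRIM2 at -0.17, MCM2 at -0.16, RPA1 at -0.16, MCM5 at -0.15, RRM1 at -0.13 and MCM4 at -0.13. Above the sum were CDC25A at 0.35, E2F1 at 0.30, POLD1 at 0.21, CDC6 at 0.19, POLE at 0.19, ORC6 at 0.18, RFC5 at 0.17, TK1 at 0.16, UHRF1 at 0.16 and RFC2 at 0.13. Among all genes tested, 14.4% lay above and 15.9% below the sum.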

How the results depend on the processing

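Scaling by total counts alone shifts all genes alike, and the median of the 46 genes less that of all genes stayed at 0.11 for EC359 and 0.047 for the combination. It turned the sign of 15 values that were called under 1 scaling or the other, beside further values near 0 that neither called. With EC359 these were MCM2 (-0.12), MCM4 (-0.078), PRIM2 (-0.10), PCNA (-0.099), FEN1 (-0.094) and UHRF1 (-0.0040), and with the combination MCM4 (-0.13), PCNA (-0.066) and RRM1 (-0.059). Against trametinib they were MCM5 (-0.041), CDC45 (-0.017), PCNA (-0.11), RFC5 (-0.14), RRM1 (-0.15) and RRM2 (-0.15) in the combination. The same scaling took away 14 further calls and added 14, and it gave 18 genes higher and 23 lower with EC359, 9 and 4 with trametinib, 17 and 25 with the combination and 17 and 25 against trametinib, and medians of -0.041 for EC359, 0.043 for trametinib, -0.097 for the combination, -0.14 for the combination against trametinib and -0.049 for the interaction. With the GC trend removed the medians were 0.039 for EC359, 0.054 for the combination and 0.041 against trametinib, and a fit of only the groups compared gave 0.012 against trametinib. Requiring 2-fold left 0 genes lower in any comparison, and 1 higher, E2F1, in the combination against control and against trametinib and 0 elsewhere.

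Leaving out 1 library at a time turned the sign of no called value, but it did so for some uncalled values near 0, such as DTL with trametinib, at -0.072 to 0.064. Higher and lower counts ran from 23 to 24 and 13 to 16 with EC359 (median 0.082 to 0.11), 4 to 5 and 4 to 6 with trametinib (-0.0059 to 0.011) and 22 to 23 and 15 to 17 with the combination (0.033 to 0.055). They ran from 14 to 16 and 13 to 18 against EC359 (-0.033 to -0.015), 21 to 22 and 15 to 18 against trametinib (0.018 to 0.037), and 10 to 10 and 11 to 12 for the interaction (-0.027 to -0.0010). The replicate block left 274 values on their side of the threshold and took away 2 calls, both of GINS4 (-0.065 against control, 0.071 against EC359), and the combination then had 16 genes lower. No pairing by replicate number was visible. Deviations of same-numbered libraries correlated at -0.067 to 0.030 and those of other pairs at -0.084 to 0.096, and 1 of 12 libraries correlated best with its own number. The labels do not say what a number marks, so these values cannot settle whether the libraries were made in pairs. Calls held in every alternative for 31 of 37 genes with EC359, 4 of 14 with trametinib, 32 of 40 with the combination, 23 of 33 for the combination against EC359, 32 of 39 against trametinib and 21 of 22 for the interaction. With 3 libraries per group from 1 line, the small changes of TYMS and GINS4 in the combination against control cannot be placed on either side of the threshold.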

Other observations

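Mitosis genes, which follow the replication genes in the cell cycle, were mostly lower where the replication genes were split. Of 46 on a list, 33 were lower and 6 higher with EC359 (background 30.3% lower and 30.8% higher), and 33 lower and 6 higher with the combination (34.7% and 35.0%), with medians of -0.19 and -0.31, while 20 were higher and 4 lower with trametinib (13.0% and 15.2% of all genes). KIF20A, a kinesin of cytokinesis, fell from 199.9, 201 and 192 CPM in control to 121, 114 and 118 CPM with EC359 and 107, 100.2 and 103 CPM with the combination, and had 231, 234 and 230.0 CPM with trametinib. CDCA8, of the chromosomal passenger complex, and CCNA2, the cyclin of S and G2 phases, were lower in the combination, at -0.91 ± 0.032 and -0.88 ± 0.028, and MYBL2, CENPF and ANLN were higher by 0.39 ± 0.025, 0.18 ± 0.052 and 0.16 ± 0.022. The interaction was below 0 in 30 of the 46 mitosis genes and above 0 in 2 (15.9% and 14.4% of all genes).

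Among 16 tested of 17 cyclins, kinases and inhibitors of G1 phase, 10 were higher and 5 lower in the combination (35.0% and 34.7% of all genes), with a median of 0.25. CCND1, cyclin D1, had 812, 809 and 803 CPM in control, 641, 646 and 643 CPM with EC359, 188, 181 and 182 CPM with trametinib and 135, 135 and 136 CPM with the combination. SKP2, the adaptor that directs CDK inhibitors to degradation, and CDKN2C, an inhibitor of CDK4 and CDK6, were lower, at -1.94 ± 0.059 and -1.44 ± 0.055. CDKN1A, the inhibitor of the S phase kinases, was higher in the combination by 3.36 ± 0.040, CDKN2B by 1.23 ± 0.068 and CDKN1C, at no more than 3.47 CPM, by 2.25 ± 0.28. A rise of this size was not particular to the combination: the highest value on the list was 3.54 with EC359 alone and 1.59 with trametinib alone. These lists were chosen with results of the data known, and what links them to the replication genes was not tested.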
